A study of Mus musculus with 14 samples.

Results

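The genes described here are nuclear receptors and 1 partner protein. They are the fatty acid receptors Pparg and Ppard, the PPAR coactivator Ppargc1b, the retinoid X receptors Rxra and Rxrb, the retinoic acid receptors Rara and Rarg, the vitamin D receptor Vdr and the glucocorticoid receptor Nr3c1. They were chosen by symbol, as 9 of the 55487 gene identifiers in the count table. Each symbol matched 1 identifier, and all 9 had enough counts to be among the 14754 genes tested. IL-4 changed 7 of the 9 in AhR-deficient cells, where 29.5% of all genes tested passed, and 7 of the 9 in wild type, where 35.9% did, with 6 higher and 1 lower in each. In AhR-deficient cells the calls of Rxra and Nr3c1 each held in 2 of 6 fits without 1 library. Between genotypes, 1 of the 9 passed in IL-4 (1.62% of all genes tested) and 1 in medium (8.11%). The call in IL-4, of Ppargc1b, held in 5 of 15 alternative analyses and in 0 of 7 fits without 1 library. That in medium, of Rara, held in 10 of 15 alternative analyses.

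Messenger RNA came from monocytes isolated from mouse leg bone marrow and cultured for 3 h. The cells were labelled wild type or deficient for the aryl hydrocarbon receptor (AhR), a ligand-activated transcription factor. They were kept with 20 ng/mL of mouse IL-4, a cytokine of alternative activation, or in medium. The groups were AhR-deficient in IL-4 and AhR-deficient in medium (n = 3 each, numbers 4, 5 and 6), and wild type in IL-4 and wild type in medium (n = 4 each, numbers 1, 2, 3 and 7). The sources used here give no Ahr allele, strain or age, and do not say whether a number is an animal or a pool. The p-values therefore measure the spread between these libraries, which may be technical.

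Nuclear receptors are transcription factors that bind small lipid-soluble ligands and change the transcription of target genes. PPARs, retinoic acid receptors and the vitamin D receptor bind DNA as pairs with a retinoid X receptor, whereas the glucocorticoid receptor works mainly with itself. PPAR gamma and its coactivators are known for fatty acid uptake and oxidation in alternatively activated macrophages, and IL-4 acts there through the transcription factor STAT6.

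Library totals ran from 33432502 to 42885079 counts. The 9 monocyte markers summed to 6012 to 9081 CPM (counts per 1000000, scaled for library composition) in every library, against 377 to 1156 CPM for 10 neutrophil markers and at most 4.53 CPM for 6 T and NK cell markers. The 6 B cell markers summed to 143 to 297 CPM. In the libraries labelled AhR-deficient, Ahr stood at 36.9 to 45.2 CPM in IL-4, against 23.7 to 26.9 CPM in wild type in IL-4. In medium it stood at 15.7 to 26.1 CPM in AhR-deficient libraries, against 11.4 to 14.4 CPM in wild type. The targeted gene was thus not lower under the AhR-deficient label but higher (log2 differences of 0.71, adjusted p = 0.0270, in IL-4 and 0.69, adjusted p = 0.0144, in medium). Counts per gene cannot show a deleted exon and do not check the label, so AhR-deficient below names the label. Xist stood at 987 CPM or more in every AhR-deficient library and at 2.12 CPM or less in every wild-type library. The Y-linked gene Ddx3y had 0 counts in every AhR-deficient library and 114 CPM or more in wild type. By these genes every AhR-deficient library had a female pattern and every wild-type library a male one. Genotype and sex therefore cannot be told apart in any genotype comparison below, for genes of any chromosome. The same holds for the difference of the IL-4 responses.

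Values per gene are CPM in number order, followed by log2 differences with their standard error (± SE) from edgeR's quasi-likelihood test and p-values adjusted over all genes tested (Benjamini-Hochberg, threshold 0.05). In bulk RNA, fewer cells of a type and less RNA per cell cannot be told apart.

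Ppargc1b had the largest IL-4 response of the 9 genes. It encodes PGC-1 beta, a coactivator of PPARs and other nuclear receptors that is known for mitochondrial and fatty acid oxidation genes (ENSMUSG00000033871.14, GRCm38 chromosome 18, 61298136 to 61400431, minus strand). In AhR-deficient libraries it stood at 13.3, 18.8 and 19.1 CPM in IL-4, against 0.193, 0.412 and 0.278 CPM in medium. In wild type it stood at 28.0, 25.3, 27.7 and 22 CPM in IL-4, against 0.343, 0.413, 0.242 and 0.344 CPM in medium. Every IL-4 library was far above every medium library. The medium level rested on 7 to 16 counts a library and the IL-4 level on 463 to 1121. The log2 differences were 5.83 ± 0.22, adjusted p = 2.78e-10 in AhR-deficient cells and 6.26 ± 0.19, adjusted p = 1.68e-11 in wild type. Within each number the log2 change was 5.51 to 6.10 in AhR-deficient cells and 5.94 to 6.84 in wild type. Mir378a, a microRNA inside an intron of Ppargc1b on its strand, had 40 counts over all 14 libraries, against 6108 for Ppargc1b.

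**Figure D1:**
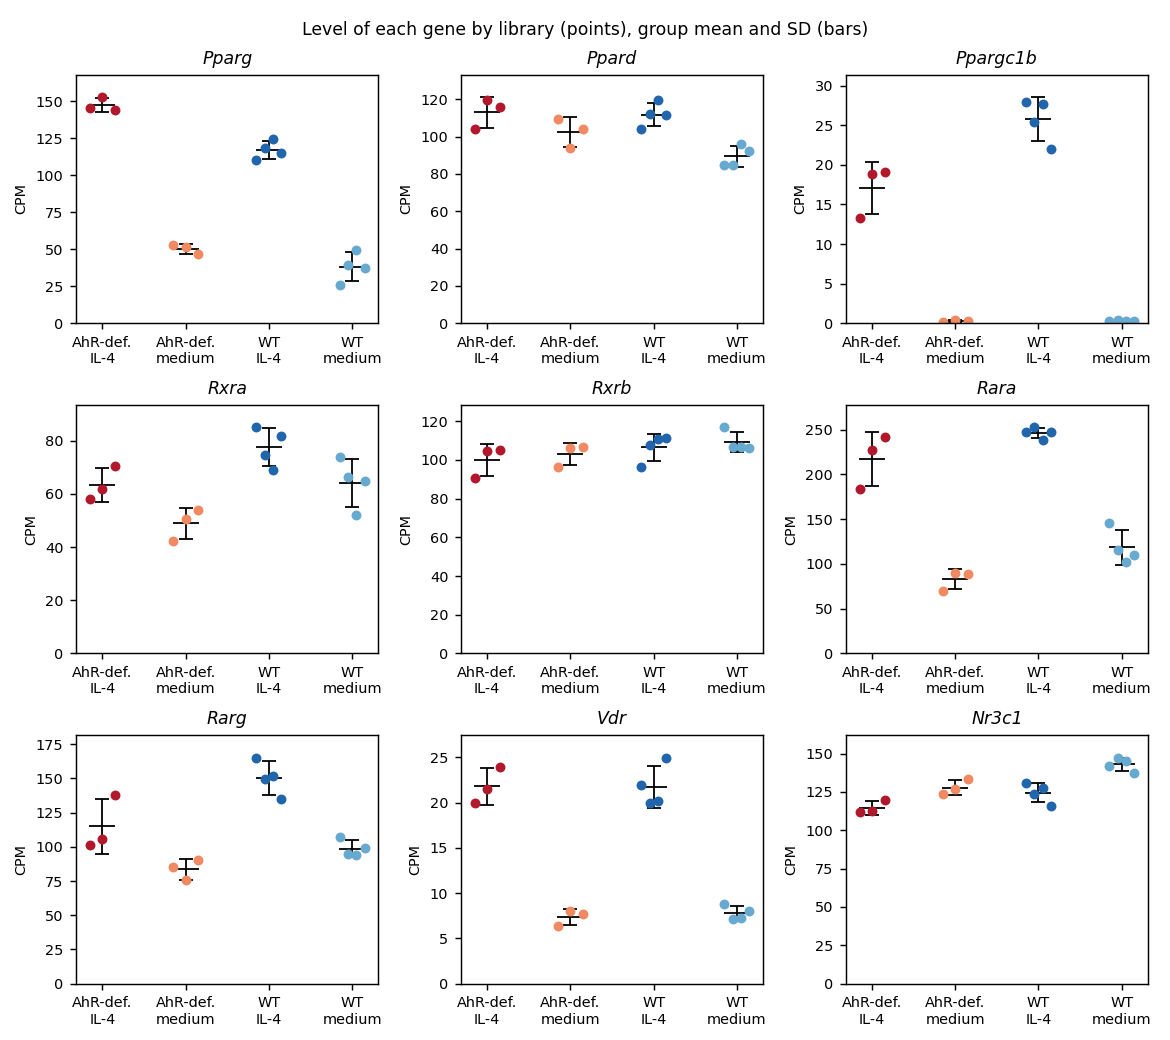
CPM (y axis, from 0) of each of the 9 genes in every library (points), with the group mean and SD (bars), for AhR-deficient in IL-4, AhR-deficient in medium, wild type in IL-4 and wild type in medium. IL-4 libraries lie above medium libraries in both genotypes for Pparg, Ppargc1b, Rara, Rarg and Vdr and below them for Nr3c1, while those of Rxrb overlap.

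Pparg encodes PPAR gamma, the fatty acid receptor known for lipid uptake and storage and for alternative activation of macrophages (ENSMUSG00000000440.12, GRCm38 chromosome 6, 115360951 to 115490399, plus strand). AhR-deficient libraries had Pparg at 145, 153 and 144 CPM in IL-4, against 52.8, 51.4 and 46.7 CPM in medium. Wild-type libraries had 110.2, 118, 124 and 115 CPM in IL-4, against 26.2, 39.1, 49.8 and 37.6 CPM in medium. All IL-4 libraries were above all medium libraries, and wild-type number 1 was the lowest of its group in both conditions. Pparg rose by a log2 difference of 1.55 ± 0.15, adjusted p = 3.71e-06 in AhR-deficient cells and of 1.61 ± 0.13, adjusted p = 4.32e-07 in wild type. The coefficient of variation in wild type was 5.08% in IL-4 and 25.3% in medium.

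Pparg has several transcription starts, and counts per gene do not tell them apart. The windows of 250 bases before to 50 after 2 of its RefSeq starts are shown because the gene rose and each holds the letters AGGTCA, the half-site that many of these receptors bind (in capitals, GRCm38.p6).
Pparg upstream start (chr6:115360894-115361193, plus strand): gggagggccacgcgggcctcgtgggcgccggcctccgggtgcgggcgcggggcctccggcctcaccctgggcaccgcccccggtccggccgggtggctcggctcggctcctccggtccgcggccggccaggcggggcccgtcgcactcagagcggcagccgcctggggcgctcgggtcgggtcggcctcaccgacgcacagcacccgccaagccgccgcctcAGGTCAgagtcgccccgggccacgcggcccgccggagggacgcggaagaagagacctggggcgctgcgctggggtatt
Pparg downstream start (chr6:115362099-115362398, plus strand): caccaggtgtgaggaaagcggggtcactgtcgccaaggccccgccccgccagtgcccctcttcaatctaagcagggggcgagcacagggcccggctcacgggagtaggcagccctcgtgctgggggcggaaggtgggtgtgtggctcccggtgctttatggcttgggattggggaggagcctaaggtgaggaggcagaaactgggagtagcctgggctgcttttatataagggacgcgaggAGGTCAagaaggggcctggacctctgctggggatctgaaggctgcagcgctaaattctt
The match lies at -28 to -23 from the upstream start and at -9 to -4 from the downstream one. Over both strands AGGTCA is found in 16.3% of the 32851 RefSeq windows of this length and in 5 of the 15 windows of these genes.

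Ppard encodes PPAR delta, a fatty acid receptor of wide expression known for fatty acid oxidation (ENSMUSG00000002250.16, GRCm38 chromosome 17, 28232700 to 28301474, plus strand). In AhR-deficient libraries it stood at 104, 119.5 and 116 CPM in IL-4, against 109, 93.8 and 104 CPM in medium, and these groups overlapped. In wild type it stood at 104, 112, 119 and 112 CPM in IL-4, against 84.9, 84.7, 96.1 and 92.5 CPM in medium, without overlap. Ppard rose in wild type (log2 0.32 ± 0.065, adjusted p = 0.00155), against 1.61 for Pparg. In AhR-deficient cells the difference did not pass (log2 0.14 ± 0.075, adjusted p = 0.190), with number 4 lower in IL-4 than in medium. The difference between these responses did not pass either (log2 -0.18 ± 0.10, adjusted p = 1).

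Rxra encodes RXR alpha, the retinoid X receptor that partners PPARs, retinoic acid receptors and the vitamin D receptor on DNA (ENSMUSG00000015846.14, GRCm38 chromosome 2, 27676440 to 27762957, plus strand). In AhR-deficient libraries it stood at 58.0, 61.8 and 70.4 CPM in IL-4, against 42.5, 50.5 and 53.9 CPM in medium. In wild type it stood at 85.1, 74.6, 69.0 and 81.9 CPM in IL-4, against 73.8, 66.6, 52.0 and 64.7 CPM in medium. The groups were apart in AhR-deficient cells and overlapped in wild type, where IL-4 was the higher library in all 4 numbers. Rxra rose in AhR-deficient cells (log2 0.37 ± 0.12, adjusted p = 0.0366), and its difference in wild type did not pass (log2 0.27 ± 0.11, adjusted p = 0.0619). With the library numbers as a block it passed in wild type as well (0.28, adjusted p = 9.09e-04), as it did without medium number 1 (adjusted p = 0.0242) or IL-4 number 3 (adjusted p = 0.0406). The call in AhR-deficient cells was lost without medium number 4 or 5, without IL-4 number 5 or 6, and without the wild-type libraries of number 7 (adjusted p = 0.0536), with an adjusted p of up to 0.154.

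Rxrb, which encodes the sister receptor RXR beta (ENSMUSG00000039656.17, GRCm38 chromosome 17, 34031812 to 34038399, plus strand), showed no IL-4 response that passed. AhR-deficient libraries had Rxrb at 90.6, 104 and 105 CPM in IL-4, against 96.3, 106 and 107 CPM in medium. Wild-type libraries had 96.5, 107, 111 and 111 CPM in IL-4, against 117, 107, 107 and 106 CPM in medium. The ranges overlapped in both genotypes, and the log2 differences were -0.043 ± 0.072, adjusted p = 0.722 in AhR-deficient cells and -0.035 ± 0.063, adjusted p = 0.715 in wild type.

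Rara encodes retinoic acid receptor alpha, a receptor of all-trans retinoic acid with a known part in myeloid differentiation (ENSMUSG00000037992.16, GRCm38 chromosome 11, 98927818 to 98974942, plus strand). Rara measured 184, 227 and 241 CPM in IL-4 in AhR-deficient libraries, against 70.0, 90.3 and 88.8 CPM in medium. The wild-type values were 247, 253, 238 and 248 CPM in IL-4, against 146, 115, 102 and 110.1 CPM in medium. Both genotypes showed all IL-4 libraries above all medium libraries, and AhR-deficient number 4 was the lowest of its group in both conditions. Rara rose by a log2 difference of 1.39 ± 0.13, adjusted p = 2.53e-06 in AhR-deficient cells and of 1.06 ± 0.11, adjusted p = 5.50e-06 in wild type. The wild-type libraries were closely spaced in IL-4, with a coefficient of variation of 2.42%, against 16.2% in medium.

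Rarg encodes retinoic acid receptor gamma (ENSMUSG00000001288.15, GRCm38 chromosome 15, 102234938 to 102257517, minus strand). In AhR-deficient libraries it stood at 101, 106 and 138 CPM in IL-4, against 85.5, 75.4 and 90.5 CPM in medium. In wild type it stood at 165, 149, 152 and 135 CPM in IL-4, against 107, 94.7, 94.2 and 99.3 CPM in medium. IL-4 and medium did not overlap in either genotype. Rarg rose by a log2 difference of 0.46 ± 0.11, adjusted p = 0.00576 in AhR-deficient cells and of 0.61 ± 0.095, adjusted p = 1.78e-04 in wild type.

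Vdr encodes the vitamin D receptor, which binds the hormonal form of vitamin D (ENSMUSG00000022479.15, GRCm38 chromosome 15, 97854425 to 97910630, minus strand). AhR-deficient libraries had Vdr at 19.9, 21.5 and 23.9 CPM in IL-4, against 6.35, 8.07 and 7.68 CPM in medium. Wild-type libraries had 21.9, 19.9, 20.2 and 25.0 CPM in IL-4, against 8.77, 7.17, 7.22 and 8.08 CPM in medium. Every IL-4 library was above every medium library. Vdr rose by a log2 difference of 1.56 ± 0.12, adjusted p = 2.42e-07 in AhR-deficient cells and of 1.48 ± 0.10, adjusted p = 6.03e-08 in wild type, and within the 7 numbers the log2 change was 1.32 to 1.65.

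STAT6 binds palindromes of the form TTCNNNNGAA, and other STAT proteins mainly the form with 3 central bases, TTCNNNGAA. The windows of Vdr and of 1 Rara start are shown because they hold such a palindrome (in capitals) and both genes rose with IL-4.
Vdr, a start inside the gene (chr15:97908247-97908546, minus strand): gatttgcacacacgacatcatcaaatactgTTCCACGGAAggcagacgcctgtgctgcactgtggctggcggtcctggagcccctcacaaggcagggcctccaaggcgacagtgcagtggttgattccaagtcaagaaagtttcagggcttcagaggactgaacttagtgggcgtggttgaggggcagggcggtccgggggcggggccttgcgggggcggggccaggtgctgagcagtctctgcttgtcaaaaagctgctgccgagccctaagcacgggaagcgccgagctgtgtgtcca
Rara, a start inside the gene (chr11:98939461-98939760, plus strand): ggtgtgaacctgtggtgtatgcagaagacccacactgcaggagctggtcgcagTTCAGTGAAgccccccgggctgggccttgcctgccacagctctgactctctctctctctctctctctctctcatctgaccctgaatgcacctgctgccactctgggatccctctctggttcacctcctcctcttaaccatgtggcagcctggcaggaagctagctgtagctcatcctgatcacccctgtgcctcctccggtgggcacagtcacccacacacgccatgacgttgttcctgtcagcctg
The Vdr match, TTCCACGGAA, lies at -220 to -211 from its start, and the Rara match, TTCAGTGAA, at -197 to -189 from that start. TTCNNNNGAA is found in 6.95% and TTCNNNGAA in 8.3% of all 32851 windows, and each in 1 of the 15 windows of these genes. RefSeq windows were at hand for 7 of the 9 genes, without Ppargc1b and Nr3c1. A match describes the letters and is not evidence of binding.

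Nr3c1 encodes the glucocorticoid receptor, the target of cortisol-type hormones and of anti-inflammatory steroid drugs (ENSMUSG00000024431.15, GRCm38 chromosome 18, 39410545 to 39519421, minus strand). Nr3c1 measured 112, 112 and 119.6 CPM in IL-4 in AhR-deficient libraries, against 123, 127 and 133 CPM in medium. The wild-type values were 131, 123, 128 and 116 CPM in IL-4, against 142, 147, 145 and 137 CPM in medium. It was the 1 gene of the 9 that fell, by a small margin but with no overlap of groups and in all 7 numbers. The log2 differences were -0.16 ± 0.054, adjusted p = 0.0394 in AhR-deficient cells and -0.20 ± 0.046, adjusted p = 0.00354 in wild type. The call in AhR-deficient cells held in 2 of 6 fits without 1 library, being lost without medium number 5 or 6 or IL-4 number 4 or 5 (adjusted p up to 0.163). It was also lost without wild-type numbers 1 and 2 (adjusted p = 0.0818), with no filter on low counts (adjusted p = 0.179) and with only the groups compared in the fit (adjusted p = 0.0659).

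**Figure D2:**
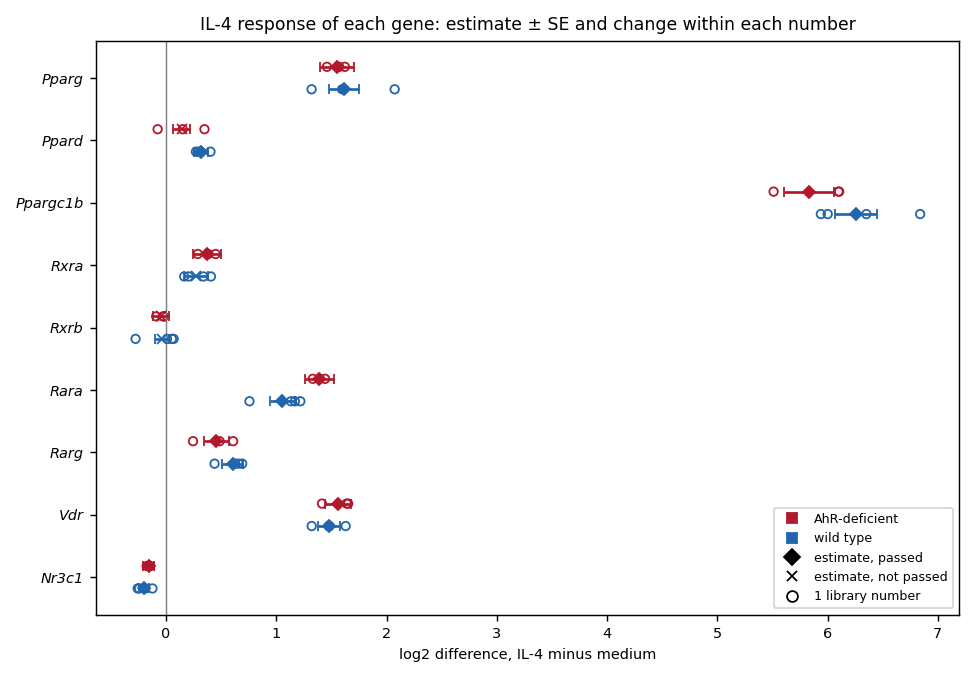
Log2 difference of IL-4 minus medium (x axis) for each of the 9 genes, AhR-deficient above wild type, as edgeR estimates ± SE (diamonds where passed, crosses where not) with the log2 CPM change within each library number (open circles). Ppargc1b stands at 5.83 in AhR-deficient cells and 6.26 in wild type, Pparg, Rara and Vdr at 1.06 to 1.61, and Nr3c1 just below 0 in both genotypes.

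Counted over the genes, IL-4 raised 6 of the 9 and lowered 1 in AhR-deficient cells, where 15.4% of all genes tested were called higher and 14.2% lower. In wild type it likewise raised 6 and lowered 1, where 19.4% were called higher and 16.5% lower. The sets differed by 1 gene each way, with Rxra passing in AhR-deficient cells and Ppard in wild type. The groups did not overlap for 7 of the 9 in AhR-deficient cells (43.7% of all genes tested) and for 7 of the 9 in wild type (33.2%). The median log2 difference over all genes tested was -0.0091 in AhR-deficient cells and 0.0089 in wild type. Monocyte markers summed to 6012 to 6570.4 CPM in IL-4 against 8202 to 9081 CPM in medium in AhR-deficient libraries, and to 6834 to 7281 CPM in IL-4 against 8271 to 8823 CPM in medium in wild type. Macrophage markers summed to 436 to 496 CPM in IL-4 against 266 to 322 CPM in medium in AhR-deficient libraries, and to 559.5 to 627 CPM in IL-4 against 347 to 511 CPM in medium in wild type. Of 9 monocyte markers 5 fell in AhR-deficient cells and 6 in wild type, and of 6 macrophage markers 3 rose and 1 fell in each. Dendritic cell markers (6 genes) summed to 168 to 199 CPM in IL-4 against 102 to 153 CPM in medium in AhR-deficient libraries, and to 131 to 170 CPM in IL-4 against 77.6 to 129 CPM in medium in wild type. Of 5 tested dendritic cell markers 2 (Flt3 and Cd209a) rose in AhR-deficient cells (median log2 difference -0.12) and 1 (Flt3) in wild type (median 0.056), and the call of Cd209a held in 8 of 14 alternatives. The 6 B cell markers summed to 208 to 252 CPM in IL-4 against 156 to 213 CPM in medium in AhR-deficient libraries, with overlap. In wild type they summed to 229 to 297 CPM in IL-4 against 143 to 181 CPM in medium, without overlap. Of 3 tested B cell markers 0 rose in AhR-deficient cells (median log2 difference 0.084) and 1 in wild type (median -0.028). The part of these markers in the responses was not tested.

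None of the 9 genes passed for a difference between the IL-4 responses of the genotypes, nor did any other gene in edgeR (0% of 14754 called; DESeq2 called 2, none of these 9). At an unadjusted p under 0.05 edgeR had 558 genes (3.78%) and 0 of the 9. The largest estimates were those of Ppargc1b (log2 -0.43 ± 0.36, adjusted p = 1) and Rara (log2 0.33 ± 0.17, adjusted p = 1). With the library numbers as a block, Rara stood at 0.32 ± 0.10 (unadjusted p = 0.0107, adjusted p = 0.478). A p that misses the threshold does not show that the responses were equal.

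In medium, Rara was the 1 gene of the 9 that passed between genotypes, and it was lower in AhR-deficient libraries (83.0 ± 11.3 CPM, n = 3) than in wild type (118 ± 19.2 CPM, SD, n = 4; log2 -0.51 ± 0.12, adjusted p = 0.0266). Of all genes tested 3.95% were called lower and 4.16% higher. The groups did not overlap for Rara, Rarg and Nr3c1 (20.0% of all genes tested). Rarg (log2 -0.24 ± 0.10, adjusted p = 0.161) and Nr3c1 (log2 -0.16 ± 0.050, adjusted p = 0.0606) did not pass, nor did Rxra (log2 -0.39 ± 0.12, adjusted p = 0.0552), which was lower on average, or Pparg (log2 0.40 ± 0.14, adjusted p = 0.0959) and Ppard (log2 0.19 ± 0.071, adjusted p = 0.0987), which were higher on average. The call of Rara was lost without AhR-deficient number 4 (adjusted p = 0.148), without wild-type number 2 (adjusted p = 0.0603), without the libraries of numbers 1 and 2 (-0.36, adjusted p = 0.253) and with only these groups in the fit (adjusted p = 0.0976). With the library number as a random block in limma-voom, Rxra (-0.38, adjusted p = 0.0405) and Nr3c1 (-0.16, adjusted p = 0.0492) passed beside Rara. Without wild-type medium number 3, Pparg (0.55, adjusted p = 0.0124) and Rxra (-0.49, adjusted p = 0.0130) passed.

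In IL-4, Ppargc1b was the 1 gene that passed between genotypes, at 17 ± 3.26 CPM in AhR-deficient libraries (n = 3) and 25.8 ± 2.77 CPM in wild type (SD, n = 4; log2 -0.59 ± 0.14, adjusted p = 0.0496). Of all genes tested 0.664% were called lower and 0.956% higher. The groups were apart for Ppargc1b, which was lower in AhR-deficient libraries, and for Pparg, which was higher there (18.2% of all genes tested were apart). Pparg averaged 147 ± 4.77 CPM in AhR-deficient libraries and 117 ± 5.94 CPM in wild type, and its difference did not pass (log2 0.33 ± 0.14, adjusted p = 0.223). The call of Ppargc1b lay at the threshold and was lost in each of the 7 fits without 1 library (log2 differences of -0.68 to -0.45, adjusted p = 0.0526 to 0.196) and with DESeq2's size factors (adjusted p = 0.0529). Without the libraries of numbers 1 and 2 it was also lost (-0.54, adjusted p = 0.323). With only these groups in the fit, Pparg passed (adjusted p = 0.0172), and Rarg (log2 -0.39 ± 0.10, adjusted p = 0.0719) passed in 4 of 15 alternatives, namely DESeq2 (adjusted p = 0.0171), no filter on low counts (adjusted p = 0.0490), the number as a random block (adjusted p = 0.0467) and without AhR-deficient number 6 (adjusted p = 0.0201). Vdr stood at 21.8 ± 2.0 CPM in AhR-deficient libraries and 21.8 ± 2.33 CPM in wild type (log2 0.0034 ± 0.10, adjusted p = 0.992).

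Some macrophage and monocyte markers differed between genotypes. The 6 macrophage markers summed to 436 to 496 CPM in AhR-deficient libraries in IL-4 against 559.5 to 627 CPM in wild type, and in medium to 266 to 322 CPM in AhR-deficient libraries against 347 to 511 CPM in wild type, without overlap in either. The median log2 difference of these 6 markers was -0.11 in IL-4 and -0.13 in medium, and 0 were called in IL-4 and 1 in medium. Of these markers Adgre1 was called lower in medium (log2 -0.47 ± 0.12, adjusted p = 0.0309), in 10 of 15 alternatives as well, and its difference in IL-4 did not pass (log2 -0.38 ± 0.12, adjusted p = 0.111). Of 9 monocyte markers 1 was called lower and 1 higher in each condition. Ccr2, a chemokine receptor of monocytes, was lower in AhR-deficient libraries in IL-4 (log2 -1.75 ± 0.31, adjusted p = 0.0204) and in medium (log2 -1.75 ± 0.31, adjusted p = 0.00985), which held in 8 of 15 alternatives in IL-4 and 12 in medium and in neither without numbers 1 and 2. Fcgr1, an antibody receptor gene, was higher there in IL-4 (log2 0.97 ± 0.13, adjusted p = 0.00204) and in medium (log2 0.60 ± 0.12, adjusted p = 0.0151), in all 15 alternatives in IL-4 and in 11 in medium. Granulocyte marker sums overlapped between genotypes and reached higher in wild type. The 10 neutrophil markers summed to 377 to 651 CPM in AhR-deficient libraries in IL-4 against 525 to 1022 CPM in wild type, and in medium to 416 to 758 CPM in AhR-deficient libraries against 465 to 1156 CPM in wild type. The 6 eosinophil markers summed to 13.7 to 58.4 CPM in AhR-deficient libraries in IL-4 against 32.2 to 174 CPM in wild type, and in medium to 13.1 to 69.7 CPM in AhR-deficient libraries against 30.0 to 133 CPM in wild type, and no marker of either list was at 0 in a group. Their mean log2 CPM was highest in wild-type numbers 1 and 2 in IL-4 (4.68 and 4.49) and in medium (4.51 and 4.41). In wild-type number 7 this mean was 4.14 in IL-4 and 3.17 in medium. With this mean as a covariate, Rara in medium stood at -0.49 (adjusted p = 0.0811) and Ppargc1b in IL-4 at -0.66 (adjusted p = 0.180). All 7 calls in each IL-4 response passed with that covariate. The part of the macrophage and monocyte markers in the genotype differences was not tested.

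**Figure D3:**
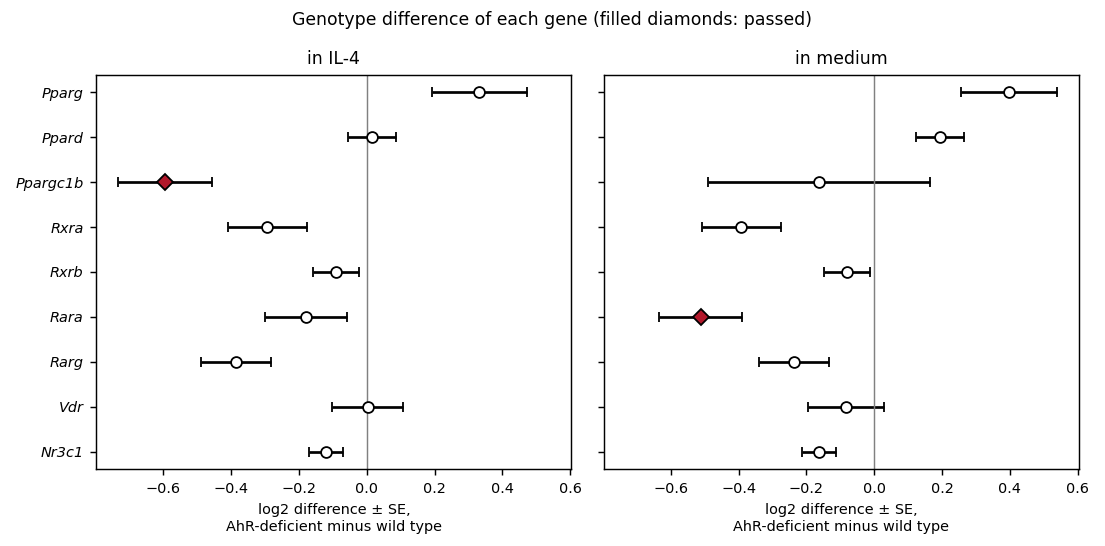
Log2 difference of AhR-deficient minus wild type (x axis, ± SE) for each of the 9 genes, in IL-4 (left) and in medium (right); filled diamonds passed and open circles did not. Ppargc1b passed in IL-4 (-0.59) and Rara in medium (-0.51), both lower in AhR-deficient libraries.

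Levels can be compared between genes per exonic length, here as CPM per kilobase of exonic sequence in GENCODE M21 (mean ± SD). In AhR-deficient libraries in IL-4, Pparg (49.9 ± 1.61) and Rara (49.8 ± 6.87) headed the order with overlapping ranges, and Rarg (27.0 ± 4.70) and Rxrb (25.2 ± 2.06), which also overlapped, followed. In AhR-deficient libraries in medium, Rxrb led (25.9 ± 1.47), ahead of Rarg (19.7 ± 1.80), Rara (19.0 ± 2.60), Pparg (17 ± 1.08) and Nr3c1 (16.6 ± 0.645), whose neighbours in that order overlapped. In wild type in IL-4, Rara stood alone at the top (56.4 ± 1.37), and Pparg (39.6 ± 2.01) and Rarg (35.3 ± 2.94) overlapped below it. In wild type in medium, Rxrb (27.4 ± 1.30) and Rara (27.1 ± 4.41) overlapped at the top, and Pparg (12.9 ± 3.27) lay beside Ppard (11.9 ± 0.756) and Rxra (11.8 ± 1.66). Ppard, Nr3c1 and Rxra kept to 8.97 to 18.6 CPM per kilobase over the 4 group means. Vdr and Ppargc1b were the lowest in every group. In medium Ppargc1b was below Vdr in both genotypes, at 0.0738 ± 0.0277 against 1.30 ± 0.160 in AhR-deficient libraries and 0.0841 ± 0.0177 against 1.38 ± 0.136 in wild type. In IL-4 Ppargc1b was above Vdr in wild type (6.46 ± 0.695 against 3.85 ± 0.413) and overlapped it in AhR-deficient libraries (4.27 ± 0.817 against 3.86 ± 0.354).

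**Figure D4:**
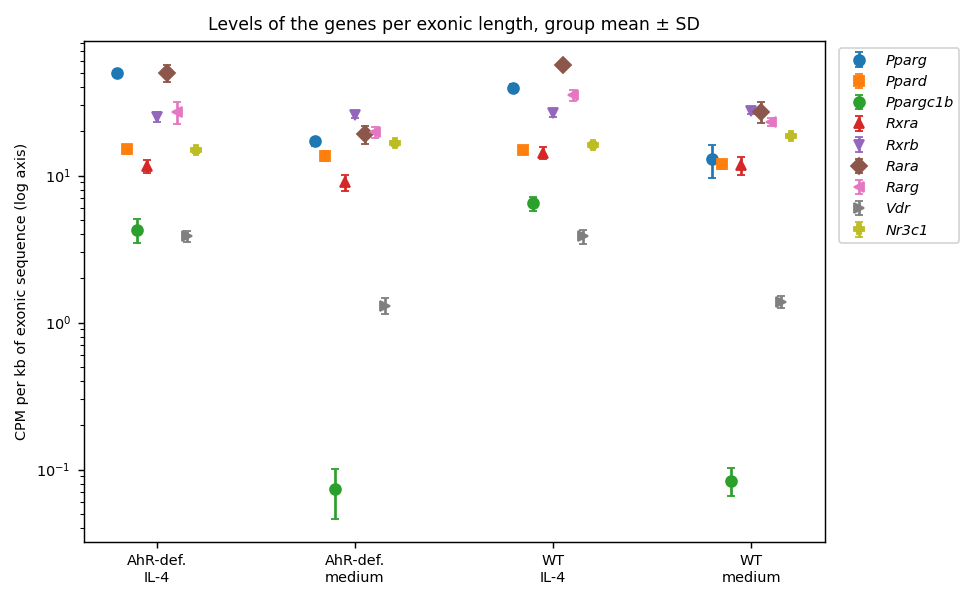
CPM per kilobase of exonic sequence (y axis, log scale) of the 9 genes in each group, as mean ± SD. Vdr and Ppargc1b are the lowest in every group, and Ppargc1b spans the widest range, with group means of 0.0738 to 6.46.

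Across the 14 libraries the log2 CPM of Ppargc1b went closely with that of Vdr (r = 0.99), Rara (r = 0.95) and Pparg (r = 0.92). Nr3c1 ran against Pparg (r = -0.82) and Ppard (r = -0.77), and Rxrb had no r beyond 0.42 with another of the genes. These are Pearson correlations over 14 libraries that fall into 4 groups and share numbers. Among all tested genes whose log2 CPM averaged 1 or higher, those most like each gene by this measure were as follows, 1 for Pparg and 2 for each of the others. For Ppargc1b they were Trio (r = 0.997) and Wdfy2 (r = 0.997), for Pparg it was Tmem26 (r = 0.992), and for Ppard Puf60 (r = 0.957) and Ddx54 (r = 0.951). For Rara they were Tep1 (r = 0.996) and Pfkfb4 (r = 0.989), for Rarg Isyna1 (r = 0.963) and Rnf144b (r = 0.957), and for Vdr Pes1 (r = 0.997) and Tbc1d16 (r = 0.992). For Rxra they were Sbk1 (r = 0.976) and Mast3 (r = 0.966), for Rxrb Xpa (r = 0.842) and Aldh3b1 (r = 0.839), and for Nr3c1 Abcc4 (r = 0.954) and Klhl24 (r = 0.954).

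Known target genes of PPARs rose in larger number than they fell with IL-4. Counts of each list below stand beside 15.4% of all genes tested higher and 14.2% lower in AhR-deficient cells, and 19.4% higher and 16.5% lower in wild type. The list held 25 genes, chiefly of fatty acid uptake and oxidation. In AhR-deficient cells 11 of 22 tested genes rose, 1 fell and 10 did not pass, with a median log2 difference of 0.37 against -0.0091 over all genes tested. In wild type 12 of 22 tested genes rose, 3 fell and 7 did not pass, with a median of 0.29 against 0.0089. In both genotypes 10 of the genes rose and 1 fell. With the library numbers as a block 2 fell in AhR-deficient cells, and without numbers 1 and 2 the wild-type count of falls was 1. Fabp5, an intracellular fatty acid carrier, averaged 92.0 ± 5.99 CPM in IL-4 and 31.8 ± 2.16 CPM in medium in AhR-deficient cells (log2 1.53 ± 0.11, adjusted p = 1.47e-07). Its wild-type means were 82.2 ± 8.92 CPM in IL-4 and 18.7 ± 2.42 CPM in medium (log2 2.14 ± 0.097, adjusted p = 7.75e-10). The cholesterol exporter gene Abcg1 rose by a log2 difference of 1.98 ± 0.16 in AhR-deficient cells and 1.41 ± 0.14 in wild type. The carnitine carrier gene Slc25a20 rose by a log2 difference of 0.51 ± 0.087 in AhR-deficient cells and 0.53 ± 0.075 in wild type. Hadhb, a subunit of mitochondrial fatty acid oxidation, rose by a log2 difference of 0.22 ± 0.049 in AhR-deficient cells and 0.33 ± 0.043 in wild type. The 1 gene that fell in both was Acsl1, a fatty acid activating enzyme (log2 -0.28 ± 0.090 in AhR-deficient cells and -0.33 ± 0.078 in wild type). Its call in AhR-deficient cells held in 1 of 6 fits without 1 library, being kept without medium number 4 (adjusted p of 0.0162 to 0.137), and its wild-type call was lost without numbers 1 and 2 (adjusted p = 0.0893). In medium, 1 of the 22 was called higher in AhR-deficient libraries than in wild type, namely Fabp5 (log2 0.77 ± 0.10, adjusted p = 0.00190). Another 3 were called lower, among them Abcg1 (log2 -0.59 ± 0.15, adjusted p = 0.0319), beside 4.16% higher and 3.95% lower of all genes tested. In IL-4, 0 of the 22 passed between genotypes. These genotype calls were not followed through the alternatives.

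Of the enzymes and carriers that make or handle fatty acid ligands, 2 of 12 tested genes rose and 2 fell in AhR-deficient cells, and 4 rose and 2 fell in wild type (14 listed; median log2 differences 0.088 in AhR-deficient cells and 0.13 in wild type). These shares lay near those of all genes tested in AhR-deficient cells (15.4% higher and 14.2% lower). With the library numbers as a block 4 rose and 4 fell in AhR-deficient cells, and 6 rose and 2 fell in wild type. The cyclooxygenase genes went opposite ways in both genotypes. Ptgs1 rose by a log2 difference of 3.15 ± 0.41 in AhR-deficient cells and 3.26 ± 0.35 in wild type, whereas the inducible Ptgs2 changed by a log2 difference of -1.82 ± 0.25 in AhR-deficient cells and -2.45 ± 0.23 in wild type. Pla2g7, a secreted phospholipase, fell as well (log2 -1.78 ± 0.26 in AhR-deficient cells and -1.60 ± 0.23 in wild type). The high-density lipoprotein receptor gene Scarb1 rose by a log2 difference of 0.31 ± 0.081 in AhR-deficient cells and 0.29 ± 0.070 in wild type. Hpgds, a prostaglandin D synthase, stood at 4.91 ± 0.425 CPM in AhR-deficient libraries and 2.09 ± 0.403 CPM in wild type in medium, a genotype difference that passed (log2 1.23 ± 0.18, adjusted p = 0.00414) in all 15 alternatives. In IL-4 it stood at 6.50 ± 0.532 CPM in AhR-deficient libraries and 3.44 ± 0.770 CPM in wild type (log2 0.92 ± 0.18, adjusted p = 0.0280), a call that held in 9 of 15 alternatives and was lost without AhR-deficient number 4 or 5, without wild-type number 1, 2 or 7, and with the granulocyte covariate (adjusted p = 0.150).

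Genes that carry and convert retinoids changed with IL-4 beside Rara and Rarg. Of 15 listed genes 8 were tested. In AhR-deficient cells 4 rose and 1 fell (median 0.98), and in wild type 4 rose and 2 fell (median 0.74). The same 4 rose in both. The retinal reductase gene Dhrs3 averaged 132 ± 11.5 CPM in IL-4 and 31.7 ± 6.01 CPM in medium in AhR-deficient cells (log2 2.06 ± 0.23, adjusted p = 9.15e-06). Wild-type cells averaged 119 ± 23.9 CPM in IL-4 and 37.9 ± 11.5 CPM in medium (log2 1.65 ± 0.19, adjusted p = 1.32e-05). Dhrs9, which oxidises retinol, rose by a log2 difference of 2.97 ± 0.21 in AhR-deficient cells and 2.91 ± 0.19 in wild type. Crabp2, a carrier of retinoic acid to its receptors, had 153 counts in IL-4 and 5 in medium summed over AhR-deficient libraries, and 256 in IL-4 and 8 in medium over wild-type libraries. Its log2 differences were 4.80 ± 0.70 in AhR-deficient cells and 4.83 ± 0.59 in wild type. Aldh1a2, which makes retinoic acid from retinal, was the fourth, at 103 counts in IL-4 and 10 in medium over AhR-deficient libraries and 95 in IL-4 and 24 in medium over wild-type libraries. Its wild-type call was lost without medium number 2 (adjusted p = 0.0684), without IL-4 number 3 (adjusted p = 0.0847) and with only the wild-type groups in the fit (adjusted p = 0.0646). Rdh10, which makes retinal from retinol, fell in both (log2 -0.80 ± 0.099 in AhR-deficient cells and -1.0 ± 0.086 in wild type).

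Known glucocorticoid target genes split, while Nr3c1 itself fell slightly. Of 17 tested genes (18 listed), 5 rose and 6 fell in AhR-deficient cells (median 0.047), and 4 rose and 5 fell in wild type (median -0.019). Fkbp5, a co-chaperone that restrains the receptor, averaged 111 ± 16.4 CPM in IL-4 and 42.6 ± 4.17 CPM in medium in AhR-deficient cells (log2 1.39 ± 0.13, adjusted p = 2.66e-06). The wild-type means were 136 ± 14.7 CPM in IL-4 and 46.8 ± 6.66 CPM in medium (log2 1.54 ± 0.12, adjusted p = 1.53e-07). Klf9 (log2 0.89 ± 0.085 in AhR-deficient cells and 0.80 ± 0.073 in wild type), the clock gene Per1 (log2 0.72 ± 0.083 in AhR-deficient cells and 0.39 ± 0.071 in wild type) and Errfi1, an inhibitor of EGF receptor signalling (log2 1.03 ± 0.12 in AhR-deficient cells and 0.70 ± 0.11 in wild type), also rose in both. The transcription factor gene Cebpd fell (log2 -1.70 ± 0.086 in AhR-deficient cells and -1.52 ± 0.075 in wild type), as did 4 others in both genotypes, namely Nfkbia, Dusp1, Il1r2 and Zbtb16. Of the receptor's chaperones and steroid enzymes, 2 of 8 tested genes rose and 2 fell in each genotype (4 rose in wild type with the library numbers as a block). Hsp90aa1 (log2 0.24 ± 0.059 in AhR-deficient cells and 0.25 ± 0.051 in wild type) and Stip1 (log2 0.17 ± 0.054 in AhR-deficient cells and 0.30 ± 0.047 in wild type) rose. Hspa8 (log2 -0.22 ± 0.066 in AhR-deficient cells and -0.41 ± 0.058 in wild type) and Hsd11b1, which makes active glucocorticoid inside cells (log2 -0.57 ± 0.18 in AhR-deficient cells and -0.52 ± 0.16 in wild type), fell. In AhR-deficient cells Hsp90aa1 passed in every fit without 1 library, Stip1 in 2 of 6, Hspa8 in 3 and Hsd11b1 in 1 (adjusted p up to 0.136). The wild-type call of Zbtb16 was lost without medium number 2 (adjusted p = 0.0653), IL-4 number 7 (adjusted p = 0.0501) or numbers 1 and 2 (adjusted p = 0.182). That of Hsd11b1 was lost without medium number 2 (adjusted p = 0.0601) or numbers 1 and 2 (adjusted p = 0.285).

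Among 12 tested coactivators other than Ppargc1b (14 listed), 4 rose and 1 fell in AhR-deficient cells, and 4 rose and 2 fell in wild type (median log2 differences 0.098 in AhR-deficient cells and 0.092 in wild type). Ncoa3, a steroid receptor coactivator, averaged 565 ± 31.1 CPM in IL-4 and 229 ± 8.66 CPM in medium in AhR-deficient cells (log2 1.30 ± 0.086, adjusted p = 6.29e-08). The wild-type means were 642 ± 72.2 CPM in IL-4 and 246 ± 15.8 CPM in medium (log2 1.38 ± 0.075, adjusted p = 4.99e-09). Pprc1, a relative of the PGC-1 coactivators, rose by a log2 difference of 0.71 ± 0.15 in AhR-deficient cells and 0.63 ± 0.13 in wild type, and the acetyltransferase gene Kat2b fell (log2 -0.44 ± 0.087 in AhR-deficient cells and -0.64 ± 0.075 in wild type). Among 9 tested corepressor genes (11 listed), 2 rose and 3 fell in AhR-deficient cells, and 3 rose and 3 fell in wild type (median log2 differences -0.010 in AhR-deficient cells and 0.011 in wild type). Tbl1xr1, a part of nuclear receptor corepressor complexes, fell (log2 -0.42 ± 0.079 in AhR-deficient cells and -0.61 ± 0.068 in wild type).

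Of 32 other listed nuclear receptors 18 were tested, of which 2 rose and 4 fell in AhR-deficient cells (median -0.18), and 2 rose and 8 fell in wild type (median -0.36). Nr1h3, which encodes the oxysterol receptor LXR alpha and is itself a partner of retinoid X receptors, averaged 12.3 ± 0.783 CPM in IL-4 and 35.9 ± 4.86 CPM in medium in AhR-deficient cells (log2 -1.55 ± 0.15, adjusted p = 3.37e-06). Wild-type cells averaged 6.90 ± 0.451 CPM in IL-4 and 19.7 ± 4.09 CPM in medium (log2 -1.52 ± 0.14, adjusted p = 9.55e-07). In medium 1 of the 18 was called higher in AhR-deficient libraries and 2 lower (4.16% and 3.95% of all genes tested). In IL-4, 2 were called higher and 0 lower (0.956% and 0.664%). Thra (log2 -0.55 ± 0.12, adjusted p = 0.0195) and Nr2c2 (log2 -0.35 ± 0.073, adjusted p = 0.0149) were lower in medium. Esr1 was higher in IL-4 (log2 0.73 ± 0.15, adjusted p = 0.0349). The calls of Thra, Nr2c2 and Esr1 were not followed through the alternatives. Nr1h3 was higher in AhR-deficient libraries than in wild type, in IL-4 (log2 0.83 ± 0.15, adjusted p = 0.0204) and in medium (log2 0.86 ± 0.14, adjusted p = 0.00524). The call in IL-4 was lost without any 1 of 4 libraries (AhR-deficient 4 or 5, wild type 1 or 2; adjusted p up to 0.0806) and with the granulocyte covariate (adjusted p = 0.107), and the call in medium without numbers 1 and 2 (adjusted p = 0.0581) and with only these groups in the fit (adjusted p = 0.0615). The thyroid hormone receptor gene Thra fell (log2 -0.94 ± 0.13 in AhR-deficient cells and -1.08 ± 0.11 in wild type), and Rora (log2 -0.50 ± 0.10 in AhR-deficient cells and -0.69 ± 0.086 in wild type) and Nr1d2 (log2 -0.50 ± 0.12 in AhR-deficient cells and -0.52 ± 0.10 in wild type) fell as well. The 2 that rose in both genotypes were Nr4a3 and Nr2f6. Nr4a3 rose by log2 0.84 ± 0.25 (adjusted p = 0.0201) in AhR-deficient cells and 0.80 ± 0.22 (adjusted p = 0.0106) in wild type. Nr2f6 rose by log2 0.38 ± 0.087 (adjusted p = 0.00460) in AhR-deficient cells and 0.38 ± 0.075 (adjusted p = 0.00127) in wild type. Without 1 library, 1 to 2 receptors of this list rose in AhR-deficient cells. The circadian repressor gene Nr1d1 fell in wild type (log2 -1.32 ± 0.25), a call lost without numbers 1 and 2 (adjusted p = 0.0816), and did not pass in AhR-deficient cells (log2 -0.53 ± 0.30, adjusted p = 0.216). In the vitamin D list 2 of 10 genes were tested, and no call was made for Spp1 (log2 -0.083 ± 0.25 in AhR-deficient cells and 0.33 ± 0.22 in wild type) and Cyp2r1 (log2 -0.16 ± 0.17 in AhR-deficient cells and -0.025 ± 0.15 in wild type). With the library numbers as a block Spp1 passed in wild type (log2 0.32, adjusted p = 1.15e-04), as it did without medium number 7 (log2 0.56, adjusted p = 0.0483). For scale, 7 of 9 genes listed as controls of the IL-4 response rose in each genotype, among them Irf4, a known IL-4 target, by a log2 difference of 5.05 ± 0.14 in AhR-deficient cells and 5.15 ± 0.12 in wild type. The others were Stat6 and the receptor gene Il4ra, which carry the signal. Stat6 stood at log2 -0.067 ± 0.064 (adjusted p = 0.490) in AhR-deficient cells and -0.063 ± 0.056 (adjusted p = 0.426) in wild type. Il4ra stood at log2 0.25 ± 0.097 (adjusted p = 0.0708) in AhR-deficient cells and 0.13 ± 0.084 (adjusted p = 0.268) in wild type, and it passed in AhR-deficient cells with the library numbers as a block (adjusted p = 0.00492).

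**Figure D5:**
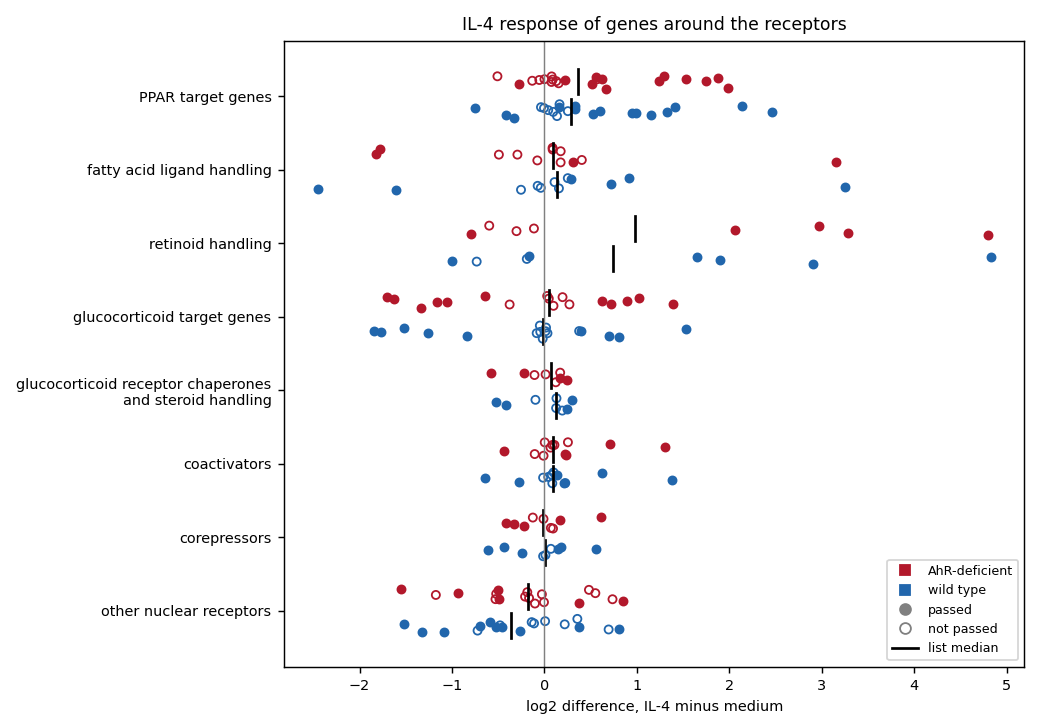
Log2 difference of IL-4 minus medium (x axis) of every tested gene in 8 lists, AhR-deficient above wild type; filled points passed, open points did not, and black lines are list medians. Retinoid handling genes have medians of 0.98 in AhR-deficient cells and 0.74 in wild type, and the other nuclear receptors -0.18 in AhR-deficient cells and -0.36 in wild type.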

How the data were processed

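The authors deposited raw counts per gene, with 1 column for each of 14 libraries, from stranded mRNA libraries read from both ends, per the labels' protocols. STAR, FastQC and mm10 are named without versions or roles, per the submitters' processing notes, and the sources used here name no counting program, annotation release, strand setting or filter. Symbols, positions and exonic lengths came from GENCODE M21 on GRCm38 (55394 of 55487 identifiers matched without their version). No exon of the 9 genes overlapped an exon of another gene.

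The deposited counts entered edgeR 4.0.16 in R 4.3.3, with filterByExpr, TMM scaling and a quasi-likelihood fit of 4 group means over all 14 libraries. Benjamini-Hochberg adjustment covered all 14754 genes tested. Each SE is the absolute log2 difference over the root of F. The steps were tested on simulated data. Libraries of 1 number deviated together from their group means (r of 0.157 to 0.733 in 7 pairs, over 9687 genes), so the numbers were taken as pairs and used as a block in an alternative. Number 7 had the lowest r and was the 1 number whose libraries did not correlate best with each other. The other alternatives used DESeq2 1.42.0 or its size factors, no filter, only the groups compared, limma-voom 3.58.1 with a random block, and each library left out. Leaving out numbers 1 and 2, or number 7, and a granulocyte marker covariate were chosen after seeing the data. The genes, lists and tests were chosen with earlier results of these data known.

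Named in the text are the 9 genes, Ahr, up to 5 genes per list with the smallest adjusted p in either IL-4 response, genes behind a count of 5 or fewer, and the 2 genes most like each of the 9. Values of 3 genes that this rule names are not reported here. Xist, Ddx3y, Adgre1, Ccr2, Fcgr1, the named dendritic cell markers, Stat6 and Il4ra were chosen after they were seen. So were the genotype values of Hpgds, Nr1h3, Thra, Nr2c2, Esr1, Fabp5 and Abcg1. Promoter windows are RefSeq sequence, and motifs were searched on both strands.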

Additional observations from a re-analysis of the deposited data

Results flagged for a closer look

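Of 18 groups of 4 wild-type libraries checked (9 genes in IL-4 and in medium), 1 held a library far from the other three. It was Rxrb in wild type in medium, where number 1 stood at 117 CPM and numbers 2, 3 and 7 at 107, 107 and 106 CPM. The gap took 0.919 of the group's range and passed Dixon's test at the 0.05 level. Chance alone would single out about 1 in 20 such groups. Without that library the IL-4 difference of Rxrb in wild type was -0.0029 (adjusted p = 0.980), against -0.035 ± 0.063, adjusted p = 0.715 with it.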

How the results depend on the processing

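The IL-4 calls of Pparg, Ppargc1b, Rara, Rarg and Vdr passed in both genotypes under every alternative, including each library left out. The number of the 9 genes called ran from 5 to 6 in AhR-deficient cells and from 7 to 8 in wild type without 1 library. With the replicate block, 7 passed in AhR-deficient cells and 8 in wild type, with Rxra in wild type added, and the block changed no other call of the 9. Over all genes the block called 5344 in AhR-deficient cells (4359 without it), 6297 in wild type (5296 without it) and 0 for the difference of the responses. Small list counts moved too. Without numbers 1 and 2, wild-type corepressors had 1 rise (3 with them), other nuclear receptors 1 rise (2 with them), and coactivators, retinoid genes and receptor chaperones 1 fall each (2 with them). Without 1 library, receptor chaperones in AhR-deficient cells had 1 to 2 rises and 0 to 2 falls.

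The genotype comparisons moved most. In IL-4 (1 of the 9 and 239 of all genes) the number of the 9 called was 0 with DESeq2's size factors, without numbers 1 and 2 and with the granulocyte covariate, and 2 with no filter, only the groups compared, DESeq2 or the random block. All genes called there were 361 with no filter, 523 with only the groups compared, 783 with DESeq2, 420 with the random block, 25 without numbers 1 and 2 and 29 with the covariate. In medium (1 of the 9 and 1197 of all genes) the number of the 9 called was 2 with no filter and without number 7, 4 with DESeq2, 3 with the random block, and 0 with only the groups compared, without numbers 1 and 2 and with the covariate. All genes called there were 59 with only the groups compared, 1976 with DESeq2, 30 without numbers 1 and 2 and 402 with the covariate. Without 1 library, the 9 had 0 to 1 calls in IL-4 and 0 to 3 in medium, and all genes 24 to 315 in IL-4 and 95 to 1716 in medium. Only DESeq2 called genes for the difference of the responses (2). Fewer samples or genes tested are part of some of these settings, and otherwise the cause was not tested.

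Signs changed for differences that had not passed. The difference of the responses for Rxrb was 0.0072 with DESeq2's size factors, 0.020 with no filter, 0.0075 with DESeq2 and 0.034 without number 7. Without numbers 1 and 2, that of Pparg was 0.11, the IL-4 response of Rxrb in wild type 0.055, the genotype difference of Ppargc1b in medium 0.028, and that of Ppard in IL-4 -0.024 (-0.066 with the covariate) and that of Vdr in IL-4 -0.042 (-0.029 with the covariate). Cyp2r1 in wild type was 0.16 without number 7. Cd209a in wild type was -0.17 without numbers 1 and 2, and -0.061 to 0.63 without 1 library. Without 1 library the ranges were -0.21 to 0.082 for Pparg in the difference of the responses, -0.054 to 0.059 for Rxrb in the difference of the responses, -0.49 to 0.061 for Ppargc1b in the genotype difference in medium, -0.15 to 0.013 for Vdr in the genotype difference in medium, -0.010 to 0.16 for Vdr in the difference of the responses, -0.024 to 0.073 for Ppard in the genotype difference in IL-4, -0.069 to 0.076 for Vdr in the genotype difference in IL-4, -0.089 to 0.024 for Rxrb in the IL-4 response in AhR-deficient cells, -0.022 to 0.039 for Stub1 in the IL-4 response in AhR-deficient cells, -0.11 to 0.14 for Cyp2r1 in the IL-4 response in wild type. Genes such as Ppargc1b and Crabp2 in medium rest on few counts, and there depth limits the fold change.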
